A study of Mus musculus with 12 samples.

Results

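The extracellular matrix genes described here are Fn1, Spp1, Tgfbi, Thbs1, Sparc, Tgm2, F13a1, Ecm1, Lgals1 and Lgals3, which were looked up by symbol. All 10 were found among the 14098 genes of the expression table, and they were followed through its 12 libraries. Their mRNA was measured in bone marrow-derived macrophages (BMDM), which were grown from the marrow of male and female C57Bl/6 mice aged 8 to 10 weeks. The mice were WT or lacked the kinase gene Camkk2 (Camkk2-/-, labelled KO), and the medium contained 10% serum and 30% of L929 cell-conditioned medium. Cells of each genotype were embedded in collagen-hyaluronic acid hydrogels and kept soft, kept soft with IL-4, or stiffened, so that 6 groups were formed: WT soft, WT soft+IL-4, WT stiff, KO soft, KO soft+IL-4 and KO stiff. Each group had 2 libraries from biological replicates, and p-values measure only the spread between these pairs. Stiffening was done 24 h after embedding, with UV light and a photoinitiator, and culture went on for 48 h. The paper describes digesting gels for 1 h with collagenase IV at 400 U/mL for flow cytometry and Western blots. Its RNA methods name no digestion step. The stiff gels also held more collagen, so UV exposure, collagen amount and stiffness cannot be told apart. The cells met collagen, hyaluronic acid and serum in every group.

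The matrix is a meshwork of collagens, adhesive glycoproteins and glycosaminoglycans that cells bind through integrins and CD44. Macrophages add to it: fibronectin (Fn1) and osteopontin (Spp1) are adhesive ligands of integrins, TGFBI and thrombospondin-1 (Thbs1) are secreted adhesion proteins, and SPARC and ECM1 are matricellular proteins that act on cells more than they bear load. Transglutaminase 2 (Tgm2) and the A subunit of coagulation factor XIII (F13a1) are transglutaminases, enzymes that join proteins by covalent bonds. Galectin-1 (Lgals1) and galectin-3 (Lgals3) are lectins that bind galactose-containing sugars on glycoproteins. IL-4 is the cytokine that drives alternative activation of macrophages, a state known for tissue repair genes.

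Values are given in TPM, a share of all transcripts corrected for their length, which added up to 1000000 in each library. TPM holds no read counts, so the depth behind a value is unknown. Differences are log2 fold changes of TPM + 1 from limma, fitted over the 11194 genes that reached 1 TPM in at least 2 libraries, with p-values adjusted by the Benjamini-Hochberg method over all of them. A DE gene here has an adjusted p under 0.05 together with a log2 fold change of 1 or more in either direction. With a limit of 2, as the study's text names, Fn1 would be the only member called in any comparison. Of the members, 9 could be tested, as Sparc stayed under the limit.

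Group names stand for the labels, and several libraries went against them. The deleted gene, Camkk2, was low (11.7 TPM) for the label WT soft 2 and high for the labels KO soft 1 (46.6 TPM) and KO stiff 1 (37.7 TPM), against 23.3 to 44.2 TPM in the other 5 WT libraries and 8.54 to 11.5 TPM in the other 4 KO libraries. WT stiff 1 and WT stiff 2 stood apart from each other, with a root mean square log2 difference over all genes tested of 0.691, and WT stiff 2 lay closest to WT soft+IL-4 2, at 0.188. The members' comparisons below are therefore also given without the libraries they rest on. All 12 macrophage markers examined were present at 6.65 TPM or more in every library. Their sum was 56449 to 64411 TPM in the soft libraries, with IL-4 28991 to 30049 TPM, in WT stiff 28867 and 29468 TPM, and in KO stiff 50921 and 54698 TPM, and most of it was Lyz2. In bulk RNA, fewer cells of a type and less RNA per cell cannot be told apart. The 10 fibroblast markers in the table summed to 0.648 to 3.72 TPM, and 8 of them stayed under 1 TPM everywhere.

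The members covered a wide span of levels. Lgals3 was among the 11 most abundant genes of every library, at 6577 to 12256 TPM, followed by Spp1 at 777 to 3000.2 TPM and Lgals1 at 948 to 1858 TPM. Tgfbi lay at 88.3 to 203 TPM, Ecm1 at 56.6 to 236 TPM, Tgm2 at 30.3 to 123 TPM and Fn1 at 10.1 to 349 TPM. Thbs1 and F13a1 were low, at 0.968 to 63.8 and 1.71 to 9.55 TPM. Sparc did not exceed 0.401 TPM and was listed at 0 in 4 libraries. Together the 10 genes made up 1.07% to 1.58% of all transcripts, and Lgals3 alone was 60.6% to 78.3% of that sum.

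**Figure D1:**
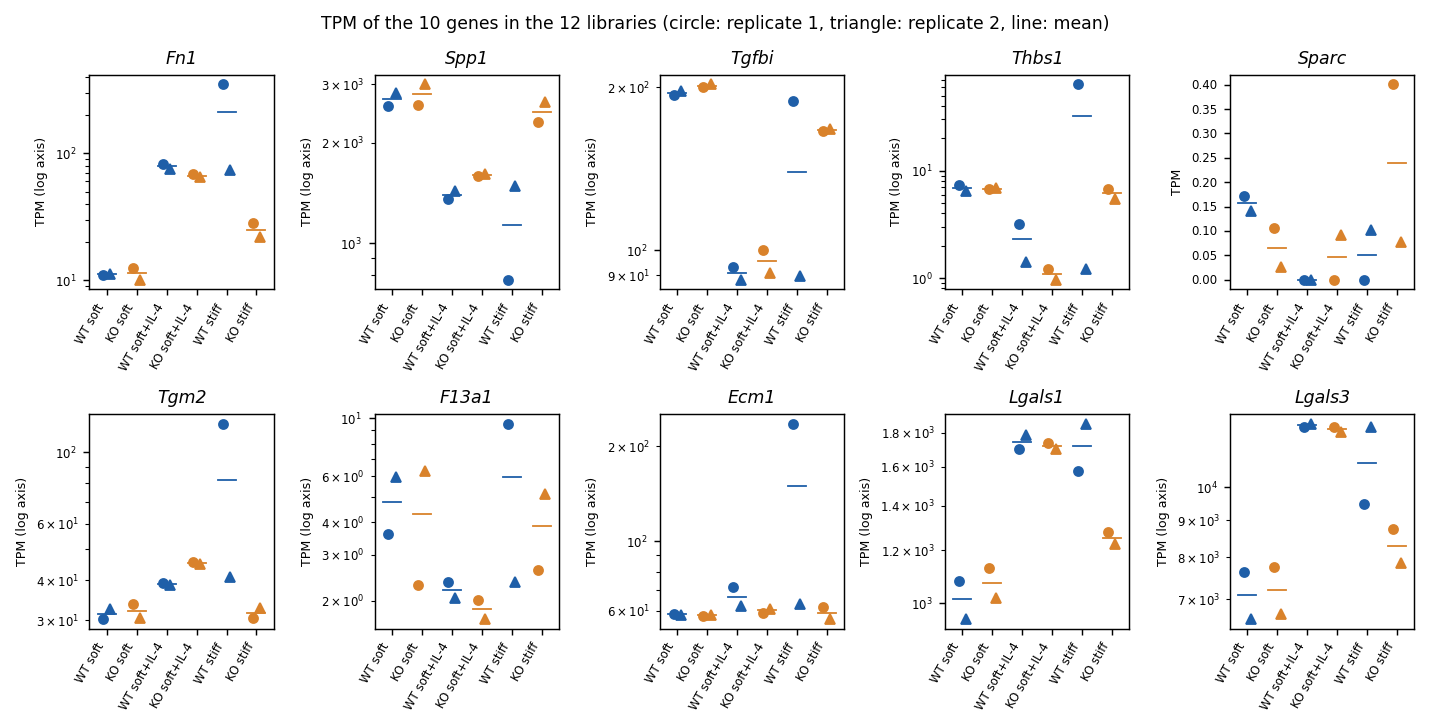
TPM of the 10 genes in each of the 12 libraries, by group (blue WT, orange KO; circles replicate 1, triangles replicate 2, lines the mean of the pair), on log axes except for Sparc. Fn1, Lgals1 and Lgals3 are higher and Spp1 and Tgfbi lower in all 4 soft+IL-4 libraries than in the 4 soft ones. WT stiff 1, which lies far from all other libraries over all genes tested, is the highest library for Fn1, Thbs1, Tgm2, F13a1 and Ecm1.

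Promoter sequences were available for 6 members, with 8 windows in all. Those of 4 genes are shown: Lgals3, Tgfbi and Spp1, whose mRNA changed with IL-4, and Ecm1, the gene with motif matches among those highest in WT stiff 1. The second Spp1 window, the Sparc window and both F13a1 windows, F13a1 also being highest in WT stiff 1, held no match and are not shown. Each window is a RefSeq sequence of 300 bases on GRCm38.p6, printed 5′ to 3′ on the gene's strand with 250 bases before and 50 after the start. The windows are chr14:47373610-47373909 (plus strand) for Lgals3, chr13:56609336-56609635 (plus) for Tgfbi, chr5:104434861-104435160 (plus) for Spp1 and chr3:95739520-95739819 (minus) for Ecm1. The Lgals3 start lies inside the gene as GENCODE draws it. Capitals mark matches, on either strand, to the STAT6 motif (TTC, then 4 bases of any kind, then GAA), the general STAT motif TTCNNNGAA, the AP-1 motif TGANTCA, the cyclic AMP response element TGACGTCA and the TATA box TATAAA.
Lgals3: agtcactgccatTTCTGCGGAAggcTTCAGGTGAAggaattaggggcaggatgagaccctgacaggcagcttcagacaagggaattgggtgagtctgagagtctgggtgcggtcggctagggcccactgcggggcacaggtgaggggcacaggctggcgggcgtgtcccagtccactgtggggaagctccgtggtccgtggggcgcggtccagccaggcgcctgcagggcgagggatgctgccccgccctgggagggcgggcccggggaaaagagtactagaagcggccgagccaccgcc
Tgfbi: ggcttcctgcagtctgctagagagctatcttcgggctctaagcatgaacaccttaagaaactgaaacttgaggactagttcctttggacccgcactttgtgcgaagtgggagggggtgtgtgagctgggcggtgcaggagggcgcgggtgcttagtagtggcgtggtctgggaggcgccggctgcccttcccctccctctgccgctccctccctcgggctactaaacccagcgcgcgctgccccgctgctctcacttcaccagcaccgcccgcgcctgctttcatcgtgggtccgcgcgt
Spp1: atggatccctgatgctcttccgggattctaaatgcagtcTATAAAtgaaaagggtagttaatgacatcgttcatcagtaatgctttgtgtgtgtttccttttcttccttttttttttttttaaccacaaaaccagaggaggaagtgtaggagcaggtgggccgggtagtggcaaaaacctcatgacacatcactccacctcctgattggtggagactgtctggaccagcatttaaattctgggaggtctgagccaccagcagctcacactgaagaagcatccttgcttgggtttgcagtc
Ecm1: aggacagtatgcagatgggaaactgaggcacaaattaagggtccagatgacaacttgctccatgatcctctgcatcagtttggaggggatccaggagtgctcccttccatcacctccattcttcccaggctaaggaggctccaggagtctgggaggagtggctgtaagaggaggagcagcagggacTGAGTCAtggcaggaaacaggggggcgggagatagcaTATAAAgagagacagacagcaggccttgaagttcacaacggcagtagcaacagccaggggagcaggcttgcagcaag
Lgals3 held 2 matches to the STAT6 motif, TTCTGCGGAA and TTCAGGTGAA, whose first bases lie 238 and 225 bases before the start, and they do not overlap. Of 32851 mouse promoters of the same length, 6.95% held that motif. The Ecm1 window held TGAGTCA 64 bases and TATAAA 27 bases before the start, and the Spp1 window held TATAAA 211 bases before it. AP-1 was matched in 7.81% and the TATA box in 13.6% of all promoters. The Tgfbi window held none of the 5 motifs, of which the general STAT motif was found in 8.3% and the cyclic AMP response element in 1.79% of promoters. These matches describe letters only and show no binding. Of the members with no window, the GENCODE annotation of GRCm38 places Fn1 at chr1:71585520-71653200 (minus), Thbs1 at chr2:118111876-118127133 (plus), Tgm2 at chr2:158116402-158146436 (minus) and Lgals1 at chr15:78926725-78930465 (plus).

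With IL-4 on the soft matrix, mRNA of Fn1, Lgals1 and Lgals3 was higher and that of Tgfbi and Spp1 lower. The changes of Lgals1, Lgals3 and Spp1 were below the log2 limit of 1. Over both genotypes, 2 of the 9 members tested were DE genes, Fn1 upward and Tgfbi downward, beside 4.35% of all genes tested. In all, 5 passed the adjusted p alone, beside 22.9% of all genes. The other 3 were Lgals1, Lgals3 and Spp1. Fn1 and Tgfbi were also the 2 DE genes in WT alone (3.76% of all genes) and in KO alone (3.65%), and by the adjusted p alone 5 members passed in WT (10.7% of all genes) and 4 in KO (10.3%). When any 1 of the 4 libraries compared was left out, no member was called in that genotype alone, whereas the count over both genotypes stayed at 2.

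Fn1 encodes the main adhesive glycoprotein of provisional matrix. It was at 11 and 11.2 TPM in WT soft and 12.6 and 10.1 TPM in KO soft, and with IL-4 at 82.9 and 75.7 TPM in WT and 68.5 and 64.9 TPM in KO. Every IL-4 library was above every soft library, by 7.12-fold between the means in WT and 5.86-fold in KO. The log2 fold change over both genotypes was 2.59 (SE 0.379, adjusted p = 0.00119). In each genotype alone it was a DE gene too, at 2.73 in WT (SE 0.536, adjusted p = 0.0117) and 2.46 in KO (SE 0.536, adjusted p = 0.019). Without the 3 libraries that went against their Camkk2 label the log2 fold change over both genotypes was 2.67, with an adjusted p of 0.0515.

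Tgfbi, a gene named for its induction by TGF-beta, showed the opposite order. Its soft values were 194 and 197 TPM in WT and 199.9 and 203 TPM in KO, and its IL-4 values were 93.0 and 88.3 TPM in WT and 100.2 and 90.7 TPM in KO. The groups did not overlap, and the soft mean was 2.16-fold (WT) and 2.11-fold (KO) the IL-4 mean. The log2 fold change was -1.09 over both genotypes (SE 0.183, adjusted p = 0.00264), -1.10 in WT (adjusted p = 0.026) and -1.07 in KO (adjusted p = 0.0299). With those 3 libraries left out it was -1.08, with an adjusted p of 0.082.

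Spp1 encodes osteopontin, a secreted phosphoprotein that binds integrins and CD44. It was at 2580.1 and 2831 TPM in WT soft and 2598 and 3000.2 TPM in KO soft. With IL-4 it was at 1356 and 1432 TPM in WT and 1589 and 1607 TPM in KO, below every soft library. The log2 fold change was -0.88 over both genotypes (SE 0.172, adjusted p = 0.0056) and -0.96 in WT (adjusted p = 0.0357), and in KO it was -0.80 with an adjusted p of 0.0701. Leaving the 3 libraries out gave -0.90 over both genotypes, with an adjusted p of 0.0993.

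The galectins rose together and by less than 2-fold. Lgals1 was at 1081 and 948 TPM in WT soft, 1127 and 1017 TPM in KO soft, and with IL-4 at 1701 and 1785 TPM in WT and 1740.3 and 1699.8 TPM in KO. Lgals3, whose promoter window holds both STAT6 motif matches above, was at 7629 and 6577 TPM in WT soft, 7751 and 6669 TPM in KO soft, and with IL-4 at 12117 and 12256 TPM in WT and 12132 and 11940.3 TPM in KO. The IL-4 libraries of each gene lay above all of its soft libraries. The log2 fold changes over both genotypes were 0.73 for Lgals1 (SE 0.0792, adjusted p = 0.000221) and 0.76 for Lgals3 (SE 0.11, adjusted p = 0.0011), and both passed the test in WT and in KO. They also passed without the 3 libraries, with adjusted p of 0.0206 and 0.0474. The TPM ratio of Lgals3 to Lgals1 stayed between 6.02 and 7.12 in the 12 libraries.

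The remaining members did not pass the test with IL-4 in the model of all 6 groups. Thbs1, which encodes an adhesion protein that also activates latent TGF-beta, was at 7.39 and 6.5 TPM in WT soft and 6.75 and 6.88 TPM in KO soft, against 3.19 and 1.4 TPM in WT and 1.21 and 0.968 TPM in KO with IL-4. These groups did not overlap, and the log2 difference was -1.61 (SE 0.815, adjusted p = 0.195). With only the groups compared in the model, which leaves out the widely spread WT stiff pair, the adjusted p was 0.000265 for Thbs1, 0.00157 for Tgm2, 0.042 for F13a1 and 0.165 for Ecm1. Thbs1 was then a DE gene, also in WT alone (-1.32, adjusted p = 0.0304) and in KO alone (-1.91, adjusted p = 0.00251). F13a1 was at 2.31 to 6.30 TPM in soft and 1.71 to 2.36 TPM with IL-4, with overlapping ranges. Tgm2 was at 30.3 to 33.7 TPM in soft and 38.6 to 45.5 TPM with IL-4, a log2 difference of 0.39 (adjusted p = 0.33). Ecm1 was at 57.8 to 58.5 TPM in soft and 59.3 to 71.2 TPM with IL-4, a log2 difference of 0.12 (adjusted p = 0.827). Thus 8 of the 9 tested members, all but F13a1, had soft and IL-4 ranges that did not overlap over the 4 libraries of each, as did 36.9% of all genes tested. Such separation always gives the smallest p of a two-sided exact permutation test of 4 against 4 libraries (0.0286 over 70 splits, 0.0476 adjusted over the 10 members and 2 comparisons), so that p adds nothing to it. For F13a1 and Sparc the exact p was 0.0571.

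The members' responses to IL-4 in KO and in WT differed by less than the SE of the difference for each of the 9. None of the 9 passed the interaction test of limma, in which no gene of the 11194 was called and 165 had an unadjusted p under 0.05. The KO response minus the WT response was -0.27 for Fn1 (SE 0.757), 0.03 for Tgfbi (SE 0.366), 0.15 for Spp1 (SE 0.343), -0.10 for Lgals1 (SE 0.158) and -0.04 for Lgals3 (SE 0.22) on the log2 scale. KO and WT compared directly called 0 members and 0% of all genes in soft (130 genes had an unadjusted p under 0.05) and in soft+IL-4 (233 genes), and 0 members had an unadjusted p under 0.05 in either. In soft, each labelled genotype held a library with high and a library with low Camkk2. With the 3 libraries against their label left out, 4 genes were called in soft, 1 in soft+IL-4 and 0 in the IL-4 interaction, none of them a member, and the KO minus WT log2 difference in soft was -0.11 for Fn1 and 0.22 for Spp1.

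**Figure D2:**
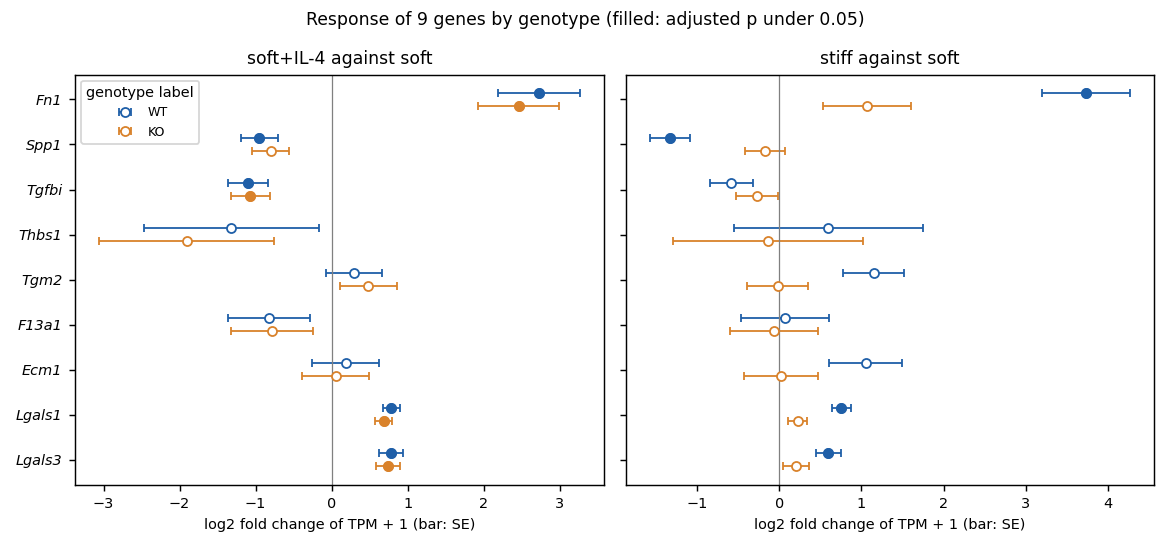
Log2 fold changes of TPM + 1 for the 9 tested members, soft+IL-4 against soft (left) and stiff against soft (right), with WT in blue, KO in orange, bars for the SE and filled points for an adjusted p under 0.05. WT and KO values lie within the SE bars of each other for most genes with IL-4, while in stiff Fn1 is at 3.73 in WT and 1.07 in KO and Spp1 at -1.33 and -0.18.

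In the stiff matrix the members were read against the same soft libraries, so the 2 comparisons share their controls. Fn1 was the only member that was a DE gene over both genotypes (beside 1.35% of all genes tested), at 2.40 on the log2 scale with SE 0.379 (adjusted p = 0.00583). Lgals1 rose by 0.49 (adjusted p = 0.0066) and Spp1 fell by 0.75 (adjusted p = 0.0325), past the adjusted p alone, as did 6.47% of all genes. Fn1, Tgfbi, Lgals1 and Lgals3 had stiff and soft ranges that did not overlap, as did those of 8.84% of all genes. Without the 3 libraries against their Camkk2 label, the log2 differences of Fn1, Lgals1 and Spp1 were 2.39, 0.47 and -0.72, with adjusted p of 0.271, 0.269 and 0.49.

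The WT stiff libraries carried most of this. In WT alone, Fn1 was at 349 and 73.3 TPM in stiff, both above the soft pair, a log2 fold change of 3.73 with SE 0.536 (adjusted p = 0.00249). Spp1 was at 777 and 1484 TPM in WT stiff, both below the soft pair, a log2 fold change of -1.33 with SE 0.243 (adjusted p = 0.00865). These were the 2 DE genes among the members, beside 3.97% of all genes, and 4 members passed the adjusted p alone, beside 10.6%. Lgals1, at 1576 and 1858 TPM, rose by 0.76 (adjusted p = 0.00295), and Lgals3, at 9489.9 and 12142 TPM, by 0.60 (adjusted p = 0.0389). Tgm2 differed by 1.15 (adjusted p = 0.0864) and Ecm1 by 1.05 (adjusted p = 0.188). With only the WT soft and WT stiff libraries in the model no member was called, and Fn1 had an adjusted p of 0.164. No member was called without the 3 libraries either, with Fn1 at 3.75 (adjusted p = 0.112) and Spp1 at -1.26 (adjusted p = 0.191).

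The labelled KO stiff libraries stayed nearer to soft. Fn1 was at 28.3 and 21.9 TPM, above all soft values and below all IL-4 values. Lgals1, at 1276 and 1228 TPM, and Lgals3, at 8763 and 7852 TPM, also lay between the soft and the IL-4 ranges, as did Tgfbi at 166 and 167 TPM. Spp1 was at 2305 and 2649.6 TPM, overlapping the soft range. Tgm2 (30.6 and 32.8 TPM) and F13a1 (2.62 and 5.11 TPM) lay inside their soft ranges, and Thbs1 (6.78 and 5.5 TPM) and Ecm1 (61.6 and 56.6 TPM) overlapped or flanked theirs. No member passed limma's test (0 had an unadjusted p under 0.05), and the log2 difference of Fn1 was 1.07 (SE 0.536, adjusted p = 1). Over all genes, 0.0447% were called and 295 had an unadjusted p under 0.05. Leaving out the 3 libraries gave 1.04 for Fn1 (adjusted p = 1), with 0 genes called in all.

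**Figure D3:**
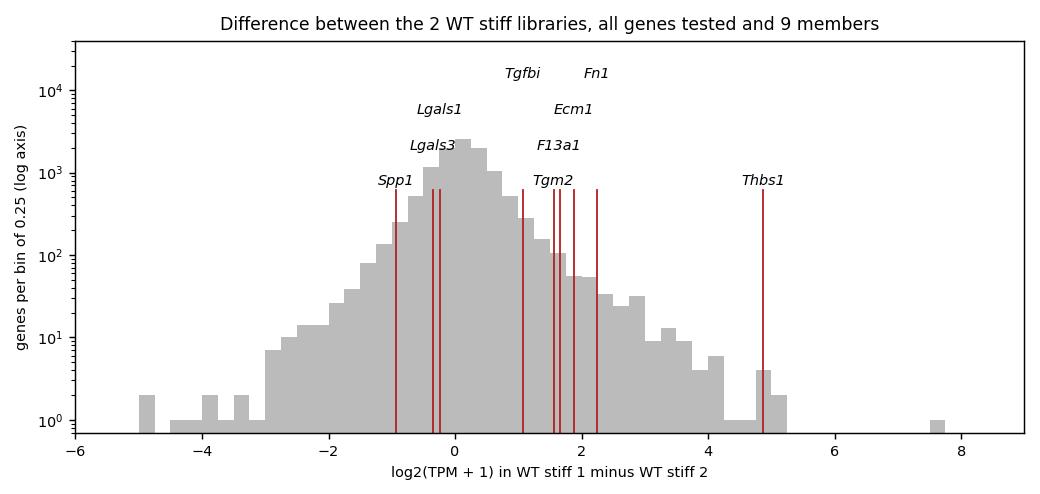
Distribution over all genes tested of log2(TPM + 1) in WT stiff 1 minus WT stiff 2, in bins of 0.25 with a log count axis, and the 9 tested members as red lines. Of the members, Thbs1 is farthest out, at 4.87, and Fn1, Ecm1, F13a1, Tgm2 and Tgfbi also differ by over 1, to the right of most genes.

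Within the WT stiff pair, 6 of the 9 members tested lay at least 1 log2 unit apart, beside 10.05% of all genes tested, and the median absolute difference was 1.56 for the members and 0.317 for all genes. Thbs1 was at 63.8 TPM in WT stiff 1 and 1.22 TPM in WT stiff 2, a ratio of 52.2. Ecm1, which encodes a secreted glycoprotein of skin and connective tissue, was at 236 and 63.3 TPM, a ratio of 3.73, while its other 11 values spanned only 56.6 to 71.2 TPM. Tgm2 was at 123 and 41.1 TPM, and its values elsewhere were at most 45.5 TPM. F13a1 was at 9.55 and 2.36 TPM, and Tgfbi at 189 and 89.8 TPM. WT stiff 1 was thus the highest library of all for Fn1, Thbs1, Tgm2, F13a1 and Ecm1, and the lowest for Spp1. Over all genes tested, its root mean square log2 difference to its nearest library was 0.688, against at most 0.388 for any other library. The share of all genes with their highest or lowest value in WT stiff 1 was not computed. WT stiff 2 had Fn1, Spp1, Tgfbi, Thbs1, Tgm2, Ecm1, F13a1 and Lgals3 within the range of the 4 soft+IL-4 libraries, and its Lgals1 was just above it. The share of all genes within that range was not computed. Over all genes tested WT stiff 2 was close to WT soft+IL-4 2, at a root mean square log2 difference of 0.188, so this is not particular to the members.

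Calls in WT stiff changed with the library of the pair that was kept, and without WT soft 2 only 1 member, Fn1, was called. Without WT stiff 1, Thbs1 changed sign, from a log2 difference of 0.60 to a fall of -1.84 (adjusted p = 0.00397), and Tgfbi became a DE gene at -1.11 (adjusted p = 4.63e-05). Without WT stiff 2, Thbs1 was at 3.03 (adjusted p = 8.61e-05), Tgm2 at 1.93 (2.68e-06) and Ecm1 at 2.00 (2.1e-06). Fn1 passed either way, at 2.62 (adjusted p = 2.78e-05) without WT stiff 1 and 4.85 (2.85e-07) without WT stiff 2. Each of these fits takes the lone WT stiff library to vary like the other groups. Sums of markers of other cells were also high in WT stiff 1, though few genes made up most of several of them. The 6 platelet and megakaryocyte genes in the table summed to 137 TPM in WT stiff 1 and 45.2 to 103.5 TPM elsewhere, the 10 fibroblast genes to 3.72 against at most 2.28 TPM, and the 5 endothelial genes to 60.2 against at most 51.7 TPM. The 8 dendritic cell genes summed to 21.8 against at most 14.3 TPM and the 8 neutrophil genes to 26.6 against at most 26.3 TPM, while the 8 mast cell and basophil genes, at 2.41 TPM, were highest elsewhere. The platelet sum was mostly Pf4, with Treml1 at 2.63 to 11.6 TPM in every library, and with Ppbp, Tubb1, Itga2b and Gp1ba at no more than 1.44 TPM. Their part in the result was not tested.

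KO and WT were also compared within stiff. Fn1 was lower in KO stiff, with a KO minus WT log2 difference of -2.64 (SE 0.536, adjusted p = 0.0239), and Spp1 was higher, at 1.20 (SE 0.243, adjusted p = 0.0235), the 2 DE genes among 9 members, beside 1.98% of all genes. For both genes the KO and WT stiff ranges did not overlap. With 2 libraries on each side ranges separate easily, and the share over all genes was not computed. With only the 2 stiff groups in the model these differences had adjusted p of 0.48 and 0.485. Neither call held without KO stiff 1 or without KO stiff 2. With each stiff library left out in turn, Fn1 lay between -3.76 and -1.52 and Spp1 between 0.74 and 1.67. Without the 3 libraries against their Camkk2 label, the values were -2.82 (adjusted p = 0.309) and 1.30 (0.287). The test of the difference between the KO and WT responses to stiffness called 0 members beside 0.67% of all genes, with Fn1 at -2.66 (SE 0.757, adjusted p = 0.18), Spp1 at 1.16 (SE 0.343, adjusted p = 0.203) and Lgals1 at -0.53 (SE 0.158, adjusted p = 0.205). Without WT stiff 1, the interaction of Fn1 was -1.54, and without WT stiff 2 it was -3.78. Leaving out the 3 libraries gave -2.71 (adjusted p = 0.998).

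Stiff and soft+IL-4 were compared without soft controls. In WT no member and no gene was called by limma (557 genes had an unadjusted p under 0.05), and the smallest adjusted p among the members was 0.59. Without WT stiff 2, the library closest to soft+IL-4, 956 genes and 6 members were called, among them Fn1 at 2.13 (adjusted p = 3.73e-05) and Thbs1 at 4.35 (2.03e-05). Without WT stiff 1, each of the 9 members had an adjusted p of 1. In KO no member was called beside 1.61% of all genes, with Fn1 at -1.39 (adjusted p = 0.221) and Lgals1 at -0.46 (adjusted p = 0.0561). With only these KO groups in the model, Fn1 (adjusted p = 0.0045) and Thbs1, at 1.77 (adjusted p = 0.00522), were DE genes. Without the 3 libraries the call fell from 180 to 16 genes, with Fn1 at -1.56 (adjusted p = 0.689).

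**Figure D4:**
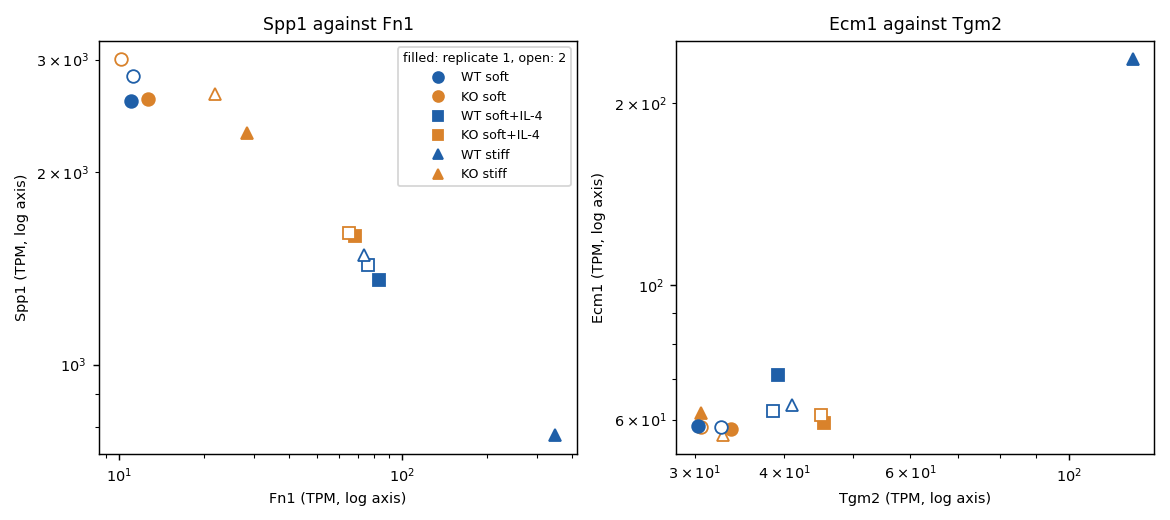
TPM of Spp1 against Fn1 (left) and of Ecm1 against Tgm2 (right) in the 12 libraries, all on log axes; blue WT, orange KO, circles soft, squares soft+IL-4, triangles stiff, filled replicate 1 and open replicate 2. Fn1 and Spp1 run in opposite order from soft through KO stiff to soft+IL-4 and WT stiff, and the right panel shows WT stiff 1 alone at 123 TPM of Tgm2 and 236 TPM of Ecm1.

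Across the 12 libraries, which share soft, IL-4 and stiff groupings, some members followed each other. The ratio of Spp1 to Fn1 was 206 to 296 in soft, 81.4 and 121 in KO stiff, 16.4 to 24.8 with IL-4, 20.2 in WT stiff 2 and 2.22 in WT stiff 1. Pearson's r of log2(TPM + 1) was -0.98 for Fn1 and Spp1, 0.98 for Lgals1 and Lgals3, and 0.94 for Tgm2 and Ecm1, the last with WT stiff 1 far from the other 11 libraries in the plot of these pairs. Among 8599 genes with a mean of at least 5 TPM, those most like Lgals3 were Fam129b (r = 0.998) and Tagln2 (r = 0.996), an actin-binding protein gene. Spp1 was most like Stap1 (0.996) and Irf7 (0.994), the latter a transcription factor of the interferon response at 10.9 to 203 TPM. Lgals1 was most like Anxa2 (0.987), which encodes a membrane-binding annexin, and Rgl1 (0.987). Tgfbi was most like Atp8b4 and Mylip (both 0.986).

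For the members that peaked in WT stiff 1, the genes most like them peaked there too. Where that library lies far from the rest, ranking by correlation favours such genes, so the shared peak is no separate result. Ecm1 was most like Ero1l (r = 0.995), an endoplasmic reticulum oxidase gene at 12.5 to 316 TPM, and Tpi1 (0.994), a glycolytic enzyme gene at 277 to 1146 TPM. Tgm2 was most like Bsg (0.983) and Lonp1 (0.98), and F13a1 most like Dab2 (0.971) and Ccdc47 (0.97). Thbs1 was most like Rpl10 (0.991) and Emilin2 (0.99), a matrix glycoprotein gene. Fn1 was most like Chil4 (0.993) and Tbc1d16 (0.988). Chil4 and Rpl10 have close copies in the genome and are uncertain. Sparc was most like Pomgnt1 (0.88) and Arhgef4 (0.844), at levels of Sparc too low to read.

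The neighbouring matrix genes were taken as lists, chosen with earlier results of these data in view. Of 46 other matrix glycoproteins, 35 were in the table and 12 were tested. With IL-4 over both genotypes, 2 were higher, Vwf (1.16, adjusted p = 0.000194), the blood clotting glycoprotein, and Creld2 (1.03, adjusted p = 0.000418), and 1 was lower, Gas6 (-1.26, adjusted p = 0.000274), a bridging ligand of TAM receptors. Vwf was at 16.0 to 20.3 TPM in soft and 38.4 to 46.6 TPM with IL-4. These are 3 of 12 genes, beside 4.35% of all genes. The list's median log2 fold change was -0.03, against -0.05 over all genes tested. In WT stiff Vwf (1.21) and Gas6 (-1.04) were called, and in KO stiff none was. The test of the difference between the KO and WT responses to stiffness called 0 genes of this list. With only the WT soft and WT stiff libraries in the model, 0 of all genes were called in WT stiff, against 444 in the model of all 6 groups. That limit holds for each list gene named in WT stiff here and below.

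Of 24 genes of proteoglycans and hyaluronan handling, 18 were in the table and 10 tested. Gpc1, a cell surface heparan sulfate proteoglycan, was at 26.1 to 32.4 TPM in soft and 162 to 168 TPM with IL-4, a log2 fold change of 2.45 (adjusted p = 0.000902), and was at 39.9 TPM in WT stiff 1 and 163 TPM in WT stiff 2. Vcan, the hyaluronan-binding proteoglycan versican, was lower at -1.08 (adjusted p = 0.0107). It was low, at 1.99 to 3.96 TPM in soft and 0.479 to 1.10 TPM with IL-4, and was called in KO but not in WT. Neither direction had a call in stiff. These 2 of 10 stand beside 4.35% of all genes, and the list's median was -0.19 with IL-4 against -0.05 over all genes.

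Collagen genes were nearly absent. Of 20, 16 were in the table and only 2 passed the filter on low values. Col18a1, which encodes a basement membrane collagen, fell by 1.14 with IL-4 (adjusted p = 0.00109) and by 1.28 in WT stiff (adjusted p = 0.00809). It was at 15.8 to 24.1 TPM in soft, 7.03 to 9.38 TPM with IL-4, and in WT stiff at 7.60 and 7.64 TPM. Of 26 other crosslinking and collagen-processing enzymes (lysyl oxidases, lysyl and prolyl hydroxylases, other transglutaminases), 21 were in the table and 11 tested, and none was called with IL-4 or in stiff. Their median log2 fold change was -0.25 with IL-4 and 0.24 in stiff over both genotypes, against -0.05 and 0.00 for all genes.

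Of 14 other galectins and galectin-binding glycoproteins, 8 were tested. With IL-4 the 2 that were called, both lower, were Spn (-1.27, adjusted p = 0.00177) and Cd7 (-1.02, adjusted p = 0.0431), which encode T cell ligands of galectin-1. Cd7 was low, at 4.37 to 4.84 TPM in soft and 0.396 to 3.50 TPM with IL-4, and was called in neither genotype alone. The 2 called genes of 8 stand beside 4.35% of all genes. The list's median was -0.36 with IL-4, against -0.05 over all genes, and no gene of it was called in stiff.

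Receptors of the members moved in both directions. Of 19, 16 were tested, and with IL-4 over both genotypes 3 were higher and 2 lower, beside 4.35% of all genes called, with a median of -0.26 against -0.05 over all genes. Itgb3, the beta-3 integrin subunit that pairs with alpha-v to bind fibronectin and osteopontin, was at 1.14 to 1.95 TPM in soft and 8.42 to 11.4 TPM with IL-4, a log2 fold change of 2.13 (adjusted p = 4.16e-06). It was the only receptor called in stiff over both genotypes (1.52, adjusted p = 0.000123), beside 1.35% of all genes, at 10.2 and 9.92 TPM in WT stiff and 3.74 and 3.24 TPM in KO stiff. Itgax (2.26, adjusted p = 0.000876) and Cd36 (1.07, adjusted p = 0.00889), a thrombospondin receptor, were also higher with IL-4. Stab1, a scavenger receptor that binds SPARC, was lower at -2.0 (adjusted p = 0.000781), at 77.1 to 140.3 TPM in soft and 22.0 to 28.8 TPM with IL-4. Itga4, the alpha-4 integrin subunit, was lower in WT with IL-4 (-1.12, adjusted p = 0.01) and in WT stiff (-1.21, adjusted p = 0.00713). It was not called in KO with IL-4, but it fell there too, from 20.6 and 30.6 TPM in soft to 11.7 and 12.5 TPM.

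Of 17 genes of the TGF-beta pathway, 12 were tested. Lrrc32, which encodes a cell surface anchor of latent TGF-beta, was at 4.46 to 6.43 TPM in soft and 32.8 to 38.7 TPM with IL-4, a log2 fold change of 2.58 (adjusted p = 0.000791). It was at 7.12 TPM in WT stiff 1, 32.7 TPM in WT stiff 2, and 13 and 12.6 TPM in KO stiff. Tgfbr1, the type I receptor, was lower with IL-4 at -1.06 (adjusted p = 0.0014). These 2 of 12 stand beside 4.35% of all genes. No gene of this list was called in stiff in either genotype, and its median was -0.20 with IL-4 and -0.07 in stiff over both genotypes, against -0.05 and 0.00 over all genes.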

How the data were processed

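The authors deposited 1 table of TPM values, which is named after Salmon; the submitters' notes list Trim Galore 0.6.7, Salmon 1.4.0 and mm10, while the study's methods describe STAR and featureCounts, so how reads became TPM is not settled here. Each library summed to 1000000, depth is unknown, and no column was left unused. TPM values are not counts, so a count model such as the study's DESeq could not be used.

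The 11194 of 14098 genes that reached 1 TPM in 2 or more of the 12 libraries were tested by limma (version 3.58.1, R 4.3.3) after a log2(TPM + 1) transform, as 1 model with a mean for each of 6 groups and a variance trend. Fold changes on this scale understate those of low genes. The study's text names a log2 fold change of 2. A limit of 1 was used here, and 2 was tried as an alternative chosen after seeing the data. In simulated data with WT stiff changed, 200 of 200 changed genes were recovered with 8 false calls among 11194. The changed genes were drawn from well expressed genes of below-median spread and shifted by 2 on the log2 scale. Each gene had the same spread in every group, unlike the WT stiff pair here. The full recovery therefore says nothing about the calls in WT stiff. Alternatives were a pseudocount of 0.1, no filter, median-of-ratios scaling, only the groups compared, the replicate block, the adjusted p alone, leaving out 3 libraries by their Camkk2 level, and leaving out each library compared.

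Members, lists and tests were chosen with earlier results of these data known. Named were all members, up to 4 called genes per list and comparison with the largest change, and the 2 genes most correlated with each member. Older symbols were followed through RefSeq, and 41 of 227 listed or marker genes were not in the table. Windows and motifs came from RefSeq on GRCm38.p6.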

Additional observations from a re-analysis of the deposited data

How the results depend on the processing

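The number of members called kept within 1.5 times under median-of-ratios scaling, which moved the median of all genes by at most 0.05 (log2), a pseudocount of 0.1, and without the filter on low values. By the adjusted p alone, 5 members passed with IL-4 over both genotypes, 5 in WT and 4 in KO, and 3 passed in stiff over both genotypes and 4 in WT. With a limit of 2 on the log2 fold change, chosen after seeing the data, 1 member (Fn1) was called. This was with IL-4 (both genotypes, WT or KO), in stiff (both genotypes or WT) and in KO against WT stiff. Without the 3 libraries against their Camkk2 label, which leaves fewer samples, 0 members were called with IL-4 (both genotypes, WT or KO), in stiff (both genotypes or WT) and in KO against WT stiff, with Fn1 at 2.67 against 2.59 on the log2 scale with IL-4. Over all genes that setting called 47 in stiff over both genotypes, against 151, and 106 with IL-4 in WT, against 421. With only the groups compared, 0 members were called in WT stiff against soft and in KO against WT stiff, where over all genes 444 and 222 calls became 0. In KO stiff against soft+IL-4, 2 members were called. Thbs1 was a DE gene with IL-4 beside Fn1 and Tgfbi under this setting, over both genotypes, in WT and in KO. The cause was not tested.

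Each library of the groups compared was left out in turn. The pooled IL-4 count stayed at 2, with Fn1 between 2.52 and 2.66. Counts ranged from 0 to 0 for IL-4 in WT and in KO, from 1 to 5 in WT stiff (up to 1108 over all genes), up to 3 in stiff over both genotypes, up to 6 in WT stiff against soft+IL-4, from 0 to 5 in KO against WT stiff and up to 5 in the stiff interaction. The highest counts came without WT stiff 2, which leaves a lone WT stiff library. In each comparison that includes WT stiff, the count over all genes was also highest without WT stiff 2. The higher counts were thus not confined to the members. Thbs1 in WT stiff against soft was at 3.03 and in KO against WT stiff at -3.19 without WT stiff 2, and it reversed without WT stiff 1, to -1.84 in WT stiff against soft and to 1.68 in KO against WT stiff.

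The replicate numbers are shared between groups, but no label says they mark a batch. Deviations of same-numbered libraries correlated at -0.05 to 0.31 between groups. With the replicate block, 2 members were called with IL-4 over both genotypes, as without it, and 490 genes in all against 487. The block moved no other member's call.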
